A study of Mus musculus with 4 samples.

Results

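The 7 genes described here encode the enzymes and the carrier that bring arginine into a cell and decide what is made from it. They are Arg1, Arg2, Nos2, Slc7a2, Ass1, Asl and Odc1, all found in the deposited matrices among 32285 genes. They were chosen after earlier results of these data were known, because Arg1 had the lowest ratio of the macrophage genes ranked below, between the immune libraries. The macrophage values of these genes are therefore given as a description. The study asked what inhibition of stearoyl-CoA desaturase, the enzyme that makes monounsaturated fatty acids, does to breast tumours growing in the brain and to the leukocytes around them. EO771, a mouse mammary cancer line carrying GFP, was grown inside the skull of immunocompetent C57BL/6 females, whose age the labels do not state. One group received SCDi for 14 days (the labels name neither compound nor dose) and the other received vehicle. Each group was a pool of 3 mice, sorted by flow cytometry into a DAPI-negative tumour gate (GFP+, CD45-) and a DAPI-negative immune gate (CD45+, GFP-), with 1 single-cell library from each gate. Nothing could be tested across animals, and every interval below is a 95% interval that covers counting error only.

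Arginine stands at a branch point in myeloid cells. The arginases split it into urea and ornithine, and ornithine feeds polyamine and proline synthesis, while inducible nitric oxide synthase turns it into nitric oxide and citrulline. Citrulline can be made back into arginine by the successive action of argininosuccinate synthase and argininosuccinate lyase. Arg1 is a textbook marker of alternatively activated and tumour-associated mouse macrophages, and Nos2 of macrophages activated by interferon gamma and microbial products.

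Arg1 (ENSMUSG00000019987), the cytosolic arginase, lies on chromosome 10 of mm10 at 24915221 to 24927484 on the minus strand. Arg2 (ENSMUSG00000021125), the mitochondrial arginase, lies on chromosome 12 at 79130777 to 79156301 on the plus strand, where Vti1b and Gm48780 overlap it on the other strand. Nos2 (ENSMUSG00000020826), inducible nitric oxide synthase, lies on chromosome 11 at 78920787 to 78960254 on the plus strand. Slc7a2 (ENSMUSG00000031596), a cationic amino acid carrier that imports arginine, lies on chromosome 8 at 40862396 to 40922308 on the plus strand, with the noncoding Gm26584 on the other strand. All 7 genes are protein coding. The sources used here do not state how counting treated strand, so reads of the partners of Arg2 and Slc7a2 may enter their counts. Ass1 (ENSMUSG00000076441), argininosuccinate synthase, lies on chromosome 2 at 31470207 to 31520672 on the plus strand. Asl (ENSMUSG00000025533), argininosuccinate lyase, lies on chromosome 5 at 130011258 to 130029247 on the minus strand. Odc1 (ENSMUSG00000011179), ornithine decarboxylase, makes putrescine and so opens polyamine synthesis; it lies on chromosome 12 at 17544794 to 17551505 on the plus strand, and the small nucleolar RNA gene Gm22748 overlaps it on the same strand.

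The RefSeq promoter windows of Ass1 and Odc1 (GRCm38.p6, from 250 bases before to 50 bases after the start) are shown. Only these 2 of the 7 genes matched the RefSeq table. Capitals mark every match, on either strand, to the E-box letters CACGTG, the GC box letters GGGCGG or the TATA box letters TATAAA. The windows are chr2:31470020-31470319 for Ass1 and chr12:17544623-17544922 for Odc1, both on the plus strand.
Ass1: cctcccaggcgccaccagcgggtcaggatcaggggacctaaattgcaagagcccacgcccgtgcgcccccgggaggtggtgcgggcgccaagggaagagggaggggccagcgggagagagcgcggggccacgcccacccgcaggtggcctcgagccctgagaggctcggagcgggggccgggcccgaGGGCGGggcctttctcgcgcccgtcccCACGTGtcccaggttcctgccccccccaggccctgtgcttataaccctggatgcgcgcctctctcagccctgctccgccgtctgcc
Odc1: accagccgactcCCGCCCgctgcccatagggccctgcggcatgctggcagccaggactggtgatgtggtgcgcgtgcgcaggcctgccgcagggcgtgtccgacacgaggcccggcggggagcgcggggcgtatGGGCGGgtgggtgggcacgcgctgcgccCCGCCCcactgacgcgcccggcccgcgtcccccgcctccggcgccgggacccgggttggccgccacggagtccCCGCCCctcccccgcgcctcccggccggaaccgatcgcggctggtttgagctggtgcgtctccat
Ass1 held 1 E-box match, which began 36 bases before the start, and 1 GC box match, which began 63 bases before it. Odc1 held no E-box match and 4 GC box matches, which began 238, 116, 88 and 15 bases before the start. Among 32851 RefSeq promoters of the same length, 7.15% held the E-box letters, 35.7% the GC box letters and 13.6% the TATA box letters, which neither window held. The matches do not overlap one another, and a match is a description of the letters only.

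After filtering, 6120 SCDi and 6572 vehicle immune cells and 8262 SCDi and 7009 vehicle tumour cells remained. Library medians over all deposited barcodes, before filtering, were 15293.5 to 41124 UMIs per barcode. At least 1 UMI of Ptprc, the CD45 gene, was present in 98.1% of SCDi and 96.7% of vehicle immune cells, and Krt8, a keratin of epithelial cells, in 96.4% of SCDi and 98.0% of vehicle tumour cells. Pairs of libraries shared 9 to 23 barcodes. Clusters that could not be named held 17.9% of SCDi and 14.6% of vehicle immune cells. The cells were clustered without the 7 genes and without the arginine-related lists used below. Macrophages numbered 1929 in the SCDi and 1882 in the vehicle library, with median depths of 19923 UMIs in SCDi and 16987 UMIs in vehicle, and fell into 4 clusters. Cluster 10 (led by Ccl8 and Pf4) was the largest in SCDi, with 743 SCDi and 626 vehicle macrophages; cluster 13 (led by Gpnmb and Apoe) was the largest in vehicle, with 469 SCDi and 666 vehicle macrophages. Monocytes numbered 1346 in SCDi and 1416 in vehicle, and malignant cells 8115 in SCDi and 6795 in vehicle. In macrophages all 14 macrophage markers were detected, at summed levels of 28315 CPM (counts per 1000000 UMIs of the summed cells) in SCDi and 30937.5 CPM in vehicle. The 12 monocyte markers summed to 3628.5 CPM in SCDi macrophages and 3260 CPM in vehicle macrophages, and their part in the results below was not tested. Of the 12 malignant-cell markers 9 were detected in SCDi and 7 in vehicle macrophages, at 222 and 399.5 CPM, of which Slpi gave 8639 of 9875 UMIs in SCDi and 13615 of 14480 in vehicle. Other malignant-cell markers ran the other way in macrophages, Krt8 with 3.38 CPM in SCDi and 1.68 CPM in vehicle, Wfdc2 with 1.49 CPM in SCDi and 0.635 CPM in vehicle, Lgals7 with 2.07 CPM in SCDi and 1.41 CPM in vehicle and Areg with 19.4 CPM in SCDi and 17.9 CPM in vehicle, while Cldn7, Cldn4 and Krt19 were at 0 in both. The part of these markers in the results below was not tested.

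Arg1 was 5.45-fold lower in SCDi macrophages than in vehicle macrophages. It had 948 UMIs, or 21.3 CPM (19.999 to 22.7), in SCDi macrophages and 4216 UMIs, or 116 CPM (113 to 120), in vehicle macrophages. The log2 ratio of SCDi over vehicle, with 0.5 counts added, was -2.45 (-2.55 to -2.34), the lowest of the 5890 ranked genes that reached 20 CPM in 1 library or both. The gene next in rank was Junos at -1.54, with 17.6 CPM in SCDi and 51.5 CPM in vehicle, and the median of the 5890 was -0.01. Predicted, mitochondrial, ribosomal protein, immunoglobulin and T cell receptor genes, and genes named by accession, were left out. The same holds for every other rank, share or median over genes at 20 CPM. Fewer Arg1-expressing cells and less RNA per cell both lower a summed level, and the counts per cell show which cells held the UMIs.

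Arg1 UMIs were concentrated in few cells in both libraries. An Arg1 UMI was found in 125 of 1929 SCDi macrophages (6.48%, 5.42 to 7.67) and in 410 of 1882 vehicle macrophages (21.8%, 19.9 to 23.7). After each cell was thinned to 2000 UMIs, leaving out 11 SCDi and 29 vehicle cells, the shares were 1.93% (1.36 to 2.65) in SCDi and 10.04% (8.71 to 11.5) in vehicle. In type 2 conventional dendritic cells, which serve here as the level of free RNA, the unthinned share was 0.361% in SCDi and 0.592% in vehicle at median depths of 18609 UMIs in SCDi and 17243.5 UMIs in vehicle. Shares in other classes outside macrophages and monocytes reached 0.948% in SCDi (microglia), and in vehicle 3.33% (B cells, median depth 6982 UMIs), 2.63% (T cells, 12118 UMIs) and 2.37% (microglia, 21774 UMIs). Both macrophage shares lay above those of their own library. Cells with 10 or more Arg1 UMIs numbered 24 in SCDi macrophages and 116 in vehicle macrophages. The highest cell held 109 UMIs in SCDi and 157 in vehicle. As few as 7 SCDi macrophages held 50% of the Arg1 UMIs of the class, against 37 vehicle macrophages. The 1% of cells with the most Arg1, 19 cells in each library, held 74.6% of the UMIs in SCDi and 34.7% in vehicle. Without them the level was 5.42 CPM in SCDi and 75.9 CPM in vehicle, a log2 ratio of -3.81.

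**Figure D1:**
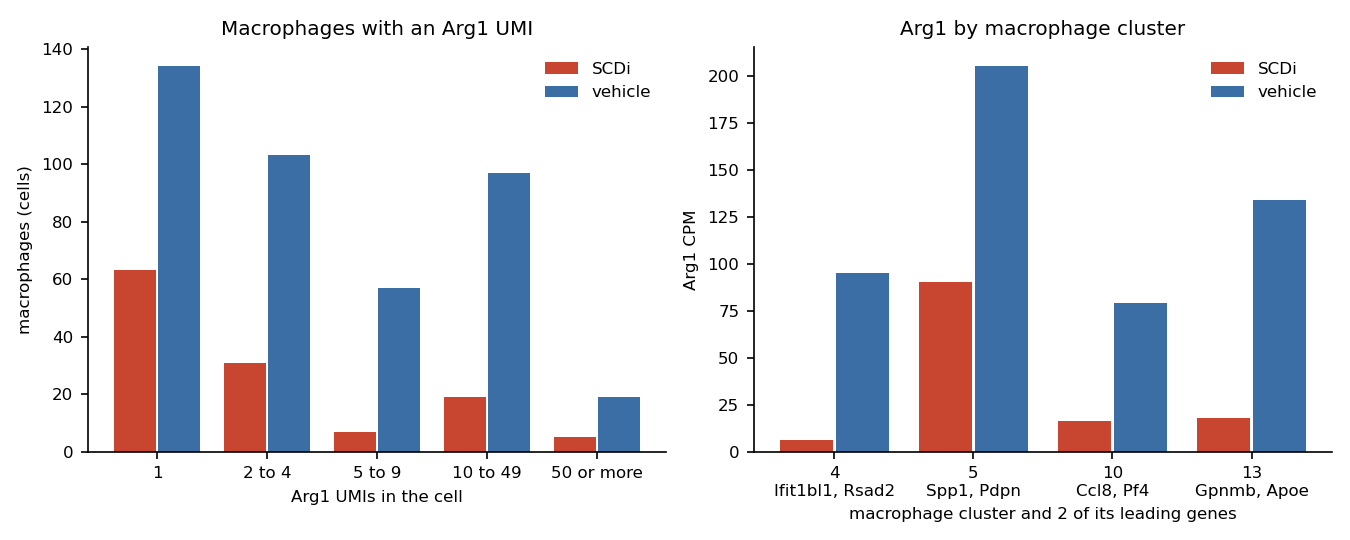
Left, number of macrophages (y axis) by the Arg1 UMIs in the cell (x axis), SCDi in red and vehicle in blue; cells with 0 UMIs (1804 SCDi and 1472 vehicle) are not drawn. Right, Arg1 CPM (y axis) in the summed cells of each macrophage cluster (x axis); vehicle bars are higher in every bin and in every cluster.

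Arg1 was lower in SCDi cells of all 4 macrophage clusters, and every interval lay below 0. In cluster 4, led by the interferon-induced Ifit1bl1 and Rsad2, it stood at 6.36 CPM in SCDi and 94.9 CPM in vehicle (log2 ratio -3.89, -4.28 to -3.54). In cluster 13, led by Gpnmb and Apoe, it stood at 18.02 CPM in SCDi and 134 CPM in vehicle (-2.89, -3.13 to -2.67). Cluster 10, led by Ccl8 and Pf4, had 16.1 CPM in SCDi and 79.1 CPM in vehicle (-2.30, -2.49 to -2.11). The smallest difference was in cluster 5, led by Spp1 and Pdpn, which had the highest Arg1 of the 4 in both libraries, at 90.5 CPM in SCDi and 205 CPM in vehicle (-1.18, -1.35 to -1.01). A further cluster that stayed unnamed, led by Cxcl9 and MHC class II genes, was also lower, at 5.47 CPM in SCDi and 17.7 CPM in vehicle (-1.69, -2.10 to -1.30). Weighting the clusters to their vehicle sizes gave a ratio of -2.21.

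In monocytes the summed Arg1 level rested on a handful of cells, and its sign changed with the processing. It was 7.94 CPM (170 UMIs) in SCDi monocytes and 7.64 CPM (180 UMIs) in vehicle monocytes, a log2 ratio of 0.06 (-0.26 to 0.37). Yet an Arg1 UMI was found in 27 of 1346 SCDi monocytes (2.01%, 1.33 to 2.91) and in 56 of 1416 vehicle monocytes (3.95%, 3.00 to 5.11). These intervals overlapped those of B cells, whose share was 0.758% (0.0192 to 4.15) in SCDi and 3.33% (1.09 to 7.61) in vehicle, from 1 SCDi and 5 vehicle cells. Against type 2 conventional dendritic cells, the SCDi monocyte interval overlapped (0.00914 to 1.99) and the vehicle monocyte interval lay above (0.0717 to 2.12). The monocyte shares were thus not clear of every class that may hold free RNA. As few as 2 SCDi monocytes held 50% of the UMIs, and the highest held 76. Leaving out the 1% of monocytes with the most Arg1, 13 SCDi and 14 vehicle cells, gave a ratio of -1.61. The clusters differed in sign: cluster 2, led by Vcan, had 12.5 CPM in SCDi and 6.46 CPM in vehicle (0.95, 0.57 to 1.34), while cluster 3, led by Adgre4 and Ace, had 1.44 CPM in SCDi and 15.5 CPM in vehicle (-3.30, -5.09 to -2.15). Elsewhere Arg1 was rare. Malignant cells had 7 Arg1 UMIs among 8115 SCDi cells and 11 among 6795 vehicle cells, or 0.0236 CPM in SCDi and 0.0393 CPM in vehicle.

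Arg2 followed another pattern over cell types than Arg1. It was highest in neutrophils, at 468 CPM (396 to 549) in SCDi and 492 CPM (426 to 566) in vehicle, and these did not differ beyond their counting intervals (log2 ratio -0.07, -0.39 to 0.24). An Arg2 UMI was found in 81.5% of 54 SCDi and 67.9% of 78 vehicle neutrophils, at median depths of 4663 and 3668.5 UMIs. Monocytes came next, at 76.3 CPM in SCDi and 109 CPM in vehicle, and the ratio was -0.52 (-0.61 to -0.43), below 0 in all 3 monocyte clusters. Macrophages had 19.4 CPM in SCDi and 26.2 CPM in vehicle (-0.44, -0.57 to -0.30), with cluster ratios that ran from -0.90 in cluster 4 to 0.28 in cluster 5. Only the interval of cluster 4 excluded 0 among the 4 macrophage clusters. Malignant cells had 31 UMIs in SCDi and 39 in vehicle.

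Nos2 was highest in macrophages and neutrophils. Macrophages stood at 40.5 CPM (38.7 to 42.4) in SCDi and 45.7 CPM (43.5 to 48.0) in vehicle, a log2 ratio of -0.17 (-0.27 to -0.08) that was under 1.5-fold. Its share of macrophages with a UMI ran the other way, 16.9% (326 cells) in SCDi and 14.2% (268 cells) in vehicle, and after thinning the shares were 5.53% in SCDi and 5.18% in vehicle. Migratory dendritic cells had shares of 0.816% in SCDi and 0.428% in vehicle at median depths of 13133 UMIs in SCDi and 12741 UMIs in vehicle. B cells had higher ones, 2.27% (0.471 to 6.498) in SCDi and 4.67% (1.90 to 9.38) in vehicle, and microglia had 1.90% in SCDi and 4.45% in vehicle, all below the unthinned macrophage shares. Nos2 varied widely among macrophage clusters, from 7.95 CPM in SCDi and 8.54 CPM in vehicle in cluster 10 to 156 CPM in SCDi and 131 CPM in vehicle in cluster 5. Cluster 13 was lower in SCDi at 11.9 CPM, against 23.6 CPM in vehicle (-0.98, -1.30 to -0.67). In cluster 5 the ratio was 0.26 (0.10 to 0.42) and in cluster 4 it was -0.41 (-0.55 to -0.26). The neutrophil levels rested on 14 SCDi and 13 vehicle UMIs.

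Monocytes had more Nos2 in the SCDi library. Their level was 28.0 CPM (600 UMIs) in SCDi and 17.1 CPM (403 UMIs) in vehicle, a log2 ratio of 0.71 (0.53 to 0.90). The value was above 0 in all 3 monocyte clusters, and it ranked 9 from the top of 5301 genes. The ratio passed 1.5-fold under 8 of 12 alternatives and was 0.29 with all deposited barcodes. The share of monocytes with a Nos2 UMI was 7.28% (5.95 to 8.80) in SCDi and 5.86% (4.70 to 7.21) in vehicle, with intervals that overlapped those of the B cell shares, and no order is read from it. The vehicle B cell level, 20.5 CPM (14.5 to 28.2), also overlapped that of vehicle monocytes. In monocytes 50% of the UMIs were held by 10 SCDi and 13 vehicle monocytes. In malignant cells Nos2 was near the limit of detection, with 75 UMIs in SCDi and 177 UMIs in vehicle, or 0.253 CPM in SCDi and 0.632 CPM in vehicle (-1.32, -1.73 to -0.92). They lay in 53 SCDi and 115 vehicle cells, and the ratio ran from -1.86 to -1.11 under 12 of 13 alternatives; the other, without the 1% of cells with the most Nos2, left no SCDi UMI and so no ratio. Microglia had 9 UMIs in SCDi and 102 in vehicle, of which a single vehicle cell held 44. Several marker lists of other cells were also lower in SCDi microglia, while others were higher. The 12 monocyte markers, all detected in both, summed to 441 CPM in SCDi and 774 CPM in vehicle. The 12 malignant-cell markers, of which 8 were detected in each, summed to 8.78 CPM in SCDi and 44.9 CPM in vehicle. The 8 mast cell or basophil markers summed to 1.82 CPM in SCDi (2 detected) and 9.13 CPM in vehicle (4 detected). The 14 macrophage markers ran the other way, at 33984 CPM in SCDi and 31450 CPM in vehicle. So did the 8 fibroblast and pericyte markers, at 5.35 CPM in SCDi and 3.72 CPM in vehicle. The part of these lists in the Nos2 difference was not tested.

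**Figure D2:**
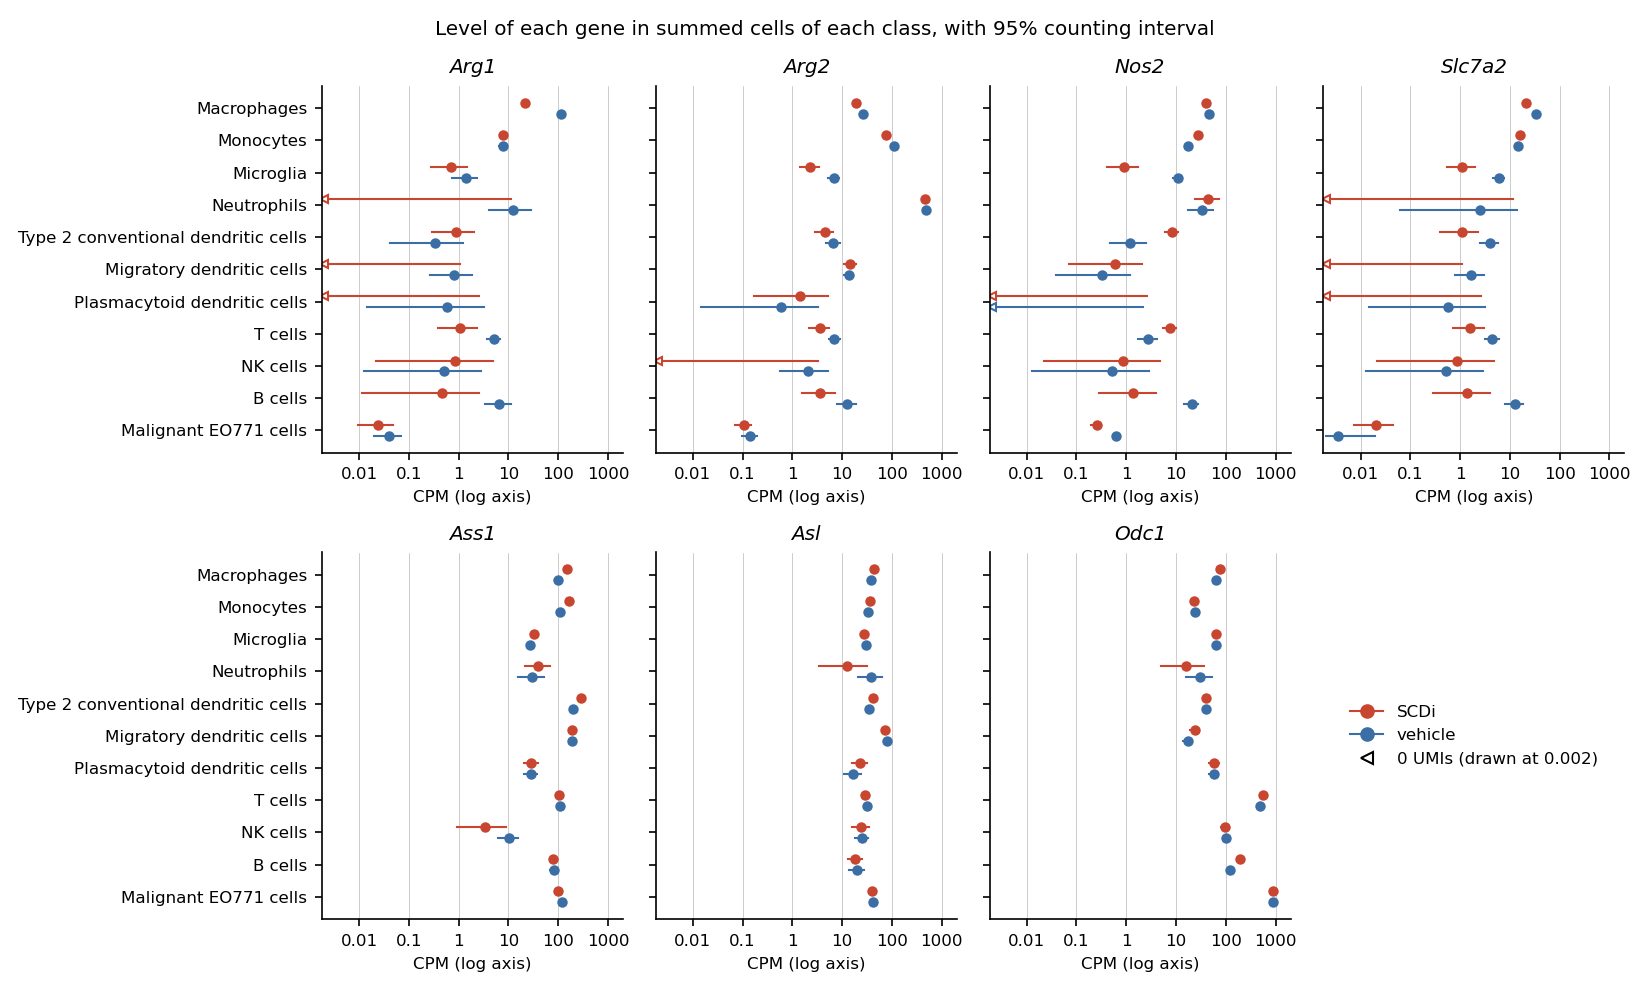
CPM of each of the 7 genes (x axis, log scale) in the summed cells of each class (y axis), SCDi in red above vehicle in blue, with the exact Poisson 95% interval as a line; open triangles at 0.002 mark classes with 0 UMIs. Arg1 is highest in vehicle macrophages (116 CPM), Arg2 in neutrophils (468 and 492 CPM) and Odc1 in malignant cells (889 and 877 CPM).

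Slc7a2, the arginine importer, was lower in SCDi macrophages together with Arg1. It had 21.1 CPM (938 UMIs) in SCDi and 32.9 CPM (1193 UMIs) in vehicle macrophages, a log2 ratio of -0.64 (-0.77 to -0.52) that passed 1.5-fold under 11 of 14 alternatives. All 4 cluster ratios were below 0 and 3 of the intervals excluded it, with -0.76 in cluster 13, -0.75 in cluster 10, -0.26 in cluster 4 and -0.13 (-0.47 to 0.20) in cluster 5. Monocytes had 15.9 CPM in SCDi and 14.6 CPM in vehicle (0.13, -0.09 to 0.35), and -0.40 after thinning. Their clusters did not share a sign, with -1.78 in cluster 1, led by Prtn3 and Fn1, and 0.41 in cluster 2. Malignant cells had 6 UMIs in SCDi and 1 in vehicle, too few for a comparison.

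Ass1, which starts the recycling of citrulline to arginine, was higher in SCDi macrophages, monocytes and type 2 conventional dendritic cells. Macrophages stood at 149 CPM (6615 UMIs) in SCDi and 98.6 CPM (3575 UMIs) in vehicle, a log2 ratio of 0.59 (0.53 to 0.65). It lay above 0 under all 14 alternatives but passed 1.5-fold under 7, and was 0.25 at the coarser Leiden resolution of 0.5. Monocytes stood at 165 CPM in SCDi and 108 CPM in vehicle (0.61, 0.53 to 0.68). Type 2 conventional dendritic cells, where Ass1 was highest, stood at 293 CPM in SCDi and 201 CPM in vehicle (0.55, 0.44 to 0.65). The ratio was above 0 in all 4 macrophage clusters, from 0.43 in cluster 10 to 1.00 in cluster 5, and in all 3 monocyte clusters, from 0.12 to 0.69. Unlike Arg1, Ass1 was spread over many cells: 65.9% of SCDi and 54.0% of vehicle macrophages had a UMI, or 22.7% in SCDi and 15.7% in vehicle after thinning. In migratory dendritic cells the interval included 0, at 188 CPM in SCDi and 187 CPM in vehicle (0.01, -0.13 to 0.15), and likewise in T cells, at 103 CPM in SCDi and 108 CPM in vehicle (-0.07, -0.22 to 0.08).

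Malignant cells had somewhat less Ass1 in the SCDi library, at 101 CPM (30088 UMIs) in SCDi and 119 CPM (33351 UMIs) in vehicle. The log2 ratio was -0.23 (-0.25 to -0.21), which is under 1.5-fold. It lay below 0 in 8 of 11 malignant clusters that had 50 or more cells of each library, with a lowest value of -1.17 in cluster 2 and a highest of 0.18 in cluster 12. The largest malignant cluster differed between the libraries, and neither held as many as 50% of the cells: cluster 9 held 1249 SCDi and 62 vehicle cells, and cluster 10 held 608 SCDi and 1681 vehicle cells.

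Asl, the next enzyme of that route, stayed within 1.5-fold in macrophages, monocytes and malignant cells. Macrophages had 44.0 CPM in SCDi and 38.2 CPM in vehicle (log2 ratio 0.20, 0.10 to 0.30). Monocytes had 36.6 CPM in SCDi and 32.4 CPM in vehicle (0.18, 0.03 to 0.32). Malignant cells had 40.04 CPM in SCDi and 42.0 CPM in vehicle (-0.07, -0.11 to -0.03). The highest class was migratory dendritic cells, with 72.3 CPM in SCDi and 80.3 CPM in vehicle (-0.15, -0.38 to 0.07).

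Odc1 had the highest UMI level of the 7 genes in malignant cells and stayed within 1.5-fold there. Malignant cells stood at 889 CPM (263812 UMIs) in SCDi and 877 CPM (245755 UMIs) in vehicle, a log2 ratio of 0.02 (0.01 to 0.03). The clusters had the opposite sign, with lower values in 10 of 11 and ratios from -0.20 to 0.02; weighted to the vehicle cluster sizes the ratio was -0.11. Cluster 9, led by Dpep1 and held mostly by SCDi cells, had the highest level, 1197 CPM in SCDi and 1179 CPM in vehicle. An Odc1 UMI was found in 95.1% of SCDi and 97.2% of vehicle malignant cells. Among immune cells T cells came first, at 561 CPM in SCDi and 483 CPM in vehicle (0.21, 0.15 to 0.28). That level was higher in the Foxp3-led cluster 7, at 657 CPM in SCDi and 557 CPM in vehicle, than in cluster 9 of the immune sort, led by Cd40lg, at 325 CPM in SCDi and 336 CPM in vehicle. Macrophages had 76.4 CPM in SCDi and 64.5 CPM in vehicle (0.25, 0.17 to 0.32), and all 4 clusters were above 0. Monocytes had 23.0 CPM in SCDi and 24.5 CPM in vehicle (-0.09, -0.27 to 0.08).

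**Figure D3:**
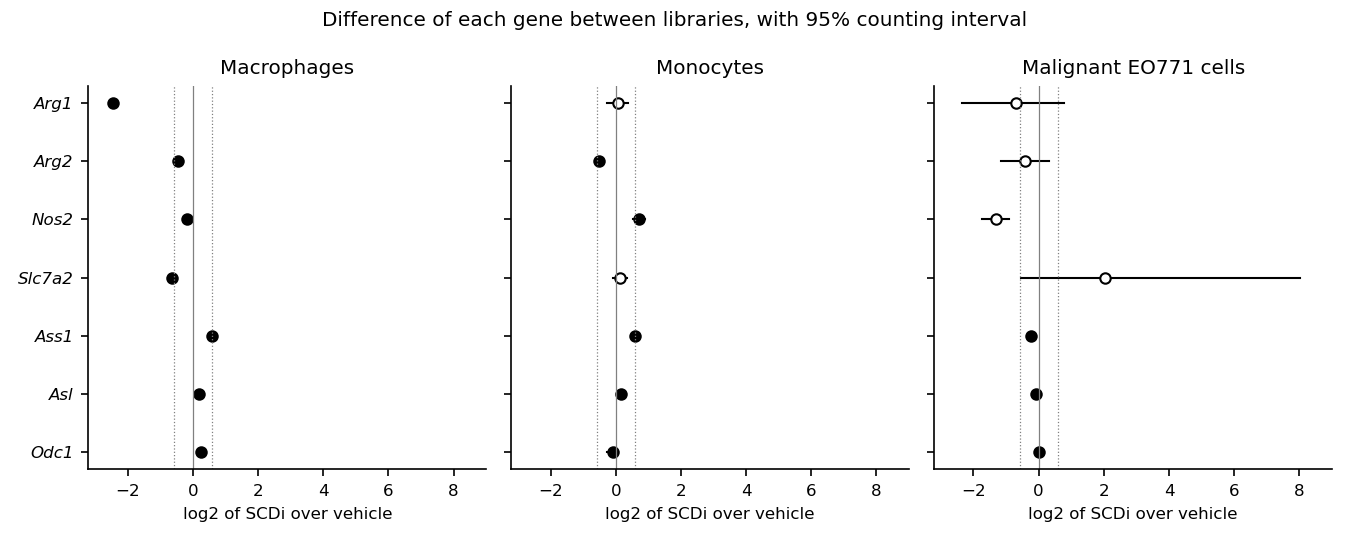
Log2 ratio of SCDi over vehicle (x axis) for each of the 7 genes (y axis) in macrophages, monocytes and malignant cells, with the exact 95% counting interval as a line; filled points have at least 20 CPM in either library, and dotted lines mark 1.5-fold. Arg1 in macrophages lies at -2.45, while Asl and Odc1 stay inside the dotted lines in all 3 classes.

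Counted over the group, 2 of the 7 genes were at least 1.5-fold lower in macrophages (Arg1 and Slc7a2), where 1.12% of 5890 genes were, and 1 was at least 1.5-fold higher (Ass1), where 0.492% were. The genes were chosen on this contrast, so nothing is read from those counts. In monocytes 5 of the 7 genes reached 20 CPM; none was 1.5-fold lower (0.773% of 5301 genes were) and 2 were 1.5-fold higher, Nos2 and Ass1 (0.358% were). In malignant cells the 3 genes at 20 CPM, Ass1, Asl and Odc1, stayed within 1.5-fold, as did nearly all genes (0.605% of 6118 were lower and 0.245% higher). The B cells were few, and 770 of 6417 genes at 20 CPM were at least 1.5-fold lower and 492 higher there. Odc1 stood at 192 CPM in SCDi and 123 CPM in vehicle B cells (0.64, 0.41 to 0.88). Nos2 had 3 UMIs in 132 SCDi B cells and 38 UMIs in 7 of 150 vehicle B cells (-3.70, -6.24 to -2.25). The other myeloid members were also more frequent in vehicle B cells, with 1 SCDi and 12 vehicle UMIs of Arg1 and 3 SCDi and 23 vehicle UMIs of Slc7a2. The 14 macrophage markers summed to 2897 CPM in SCDi and 2754 CPM in vehicle B cells. The 8 neutrophil markers summed to 1561 CPM (8 detected) in SCDi and 45.4 CPM (5 detected) in vehicle B cells. The part of either list in the Nos2 difference was not tested.

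In order of level, the upper places of each gene were held by different cells. For Arg1 the vehicle macrophages stood clear of all other class sums, and the SCDi macrophages came second, with an interval that overlapped that of vehicle neutrophils (12.5 CPM, 5 UMIs). For Arg2 the neutrophil sums of the 2 libraries overlapped each other and stood clear of the monocytes. The vehicle macrophage sum of Nos2 overlapped the SCDi neutrophil sum next to it. Genes whose level over the 22 sums of class and library was most like that of Arg1 were F7 (Pearson r of log2(CPM + 1) 0.96), Nr1h3 (0.91), Ms4a14 (0.88), Slc7a2 (0.88), Gdf3 (0.88) and Szrd1 (0.87), out of 9474 genes. The arginine importer was thus the only other member among the 6. For Nos2 they were Pla2g7 (0.93), Rhov (0.92), C3 (0.91), Flt1 (0.90), Adam8 (0.89) and Ankrd66 (0.89). The sums share libraries and differ in depth, and the correlations are a description of them; that between Arg1 and Nos2 was 0.73.

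Arg1 and Nos2 compete for arginine, so the transcripts were counted in the same cells. Over all macrophages of each library, more cells held both than their separate shares give. Counting error covered that difference at 2000 UMIs per cell. On all UMIs, 36 SCDi macrophages had both, where 21.1 would be expected from the separate shares, a ratio of 1.70 (1.19 to 2.36). In vehicle, 79 macrophages had both against 58.4 expected, a ratio of 1.35 (1.07 to 1.69). Thinned to 2000 UMIs per cell, 4 SCDi macrophages had both against 2.04 expected (1.96, 0.53 to 5.01), and 13 vehicle macrophages against 9.64 expected (1.35, 0.72 to 2.31), and a departure from 1 was not detectable at that depth. Thinned to 5000 UMIs, 10 SCDi macrophages had both against 5.05 expected (1.98, 0.95 to 3.64), and 34 vehicle macrophages against 22.9 expected (1.48, 1.03 to 2.07). At 1000 UMIs per cell, 4 SCDi macrophages had both against 0.739 expected (5.41, 1.47 to 13.8), and 7 vehicle macrophages against 4.03 expected (1.74, 0.70 to 3.58). Depth differed by Arg1: Arg1-positive SCDi macrophages had a median of 23250 UMIs and Arg1-negative ones 19707, and in vehicle the medians were 19915.5 and 16489. Nos2-positive SCDi macrophages had a median of 18932 UMIs and Nos2-negative ones 20121, and in vehicle the medians were 17497.5 and 16921.5. Summing the expected number within clusters left the ratios on all UMIs at 1.53 in SCDi and 1.35 in vehicle. Among SCDi macrophages with an Arg1 UMI, 28.8% also had a Nos2 UMI, against 16.1% of those without. Among vehicle macrophages these shares were 19.3% and 12.8%. In cluster 4, led by interferon-induced genes, 17 SCDi and 27 vehicle cells had both, against 9.33 and 16.0 expected, but thinned to 2000 UMIs these were 0 SCDi cells against 0.352 expected and 8 vehicle cells against 3.09. In cluster 5 the unthinned counts were 15 SCDi and 20 vehicle cells against 9.56 and 16.6 expected, and in cluster 10 they were 3 SCDi and 8 vehicle cells against 2.97 and 7.66 expected. Cluster 13 had 1 SCDi cell with both against 1.70 expected and 24 vehicle cells against 18.1. In monocytes 6 SCDi cells had both against 1.97 expected (3.05, 1.12 to 6.64), and 8 vehicle cells against 3.28 expected (2.44, 1.05 to 4.80). With the expected number summed within monocyte clusters both intervals included 1 (SCDi 2.56, 0.94 to 5.57; vehicle 2.27, 0.98 to 4.47), and thinned to 2000 UMIs only 1 cell in each library had both.

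Nos2 met the importer and the recycling enzyme in the same cells more often than the separate shares give. In thinned macrophages Nos2 and Slc7a2 met in 11 SCDi cells against 3.76 expected (2.93, 1.46 to 5.24) and in 16 vehicle cells against 5.49 expected (2.91, 1.67 to 4.73). Nos2 and Ass1 met in 44 SCDi cells against 24.04 expected (1.83, 1.33 to 2.46) and in 32 vehicle cells against 15.02 expected (2.13, 1.46 to 3.01). Of the 21 pairs, these were the 2 whose intervals lay above 1 in both libraries. Arg2 and Nos2 passed 1 in vehicle (2.19, 1.09 to 3.92), with a SCDi ratio of 1.45. Slc7a2 and Ass1 met more often than expected in SCDi (2.01, 1.37 to 2.85), with an interval that reached 1 in vehicle (1.45, 0.93 to 2.15). For these pairs the expected number was not summed within clusters. Among macrophage clusters Nos2 ran from 7.95 to 156 CPM in SCDi and from 8.54 to 131 CPM in vehicle. Slc7a2 ran from 8.69 to 33.1 CPM in SCDi and from 14.6 to 47.9 CPM in vehicle. The range of Ass1 was 51.9 to 260 CPM in SCDi and 38.5 to 155 CPM in vehicle. The part of cluster make-up in these ratios was not tested. Whether any pair differed between the libraries was not tested.

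**Figure D4:**
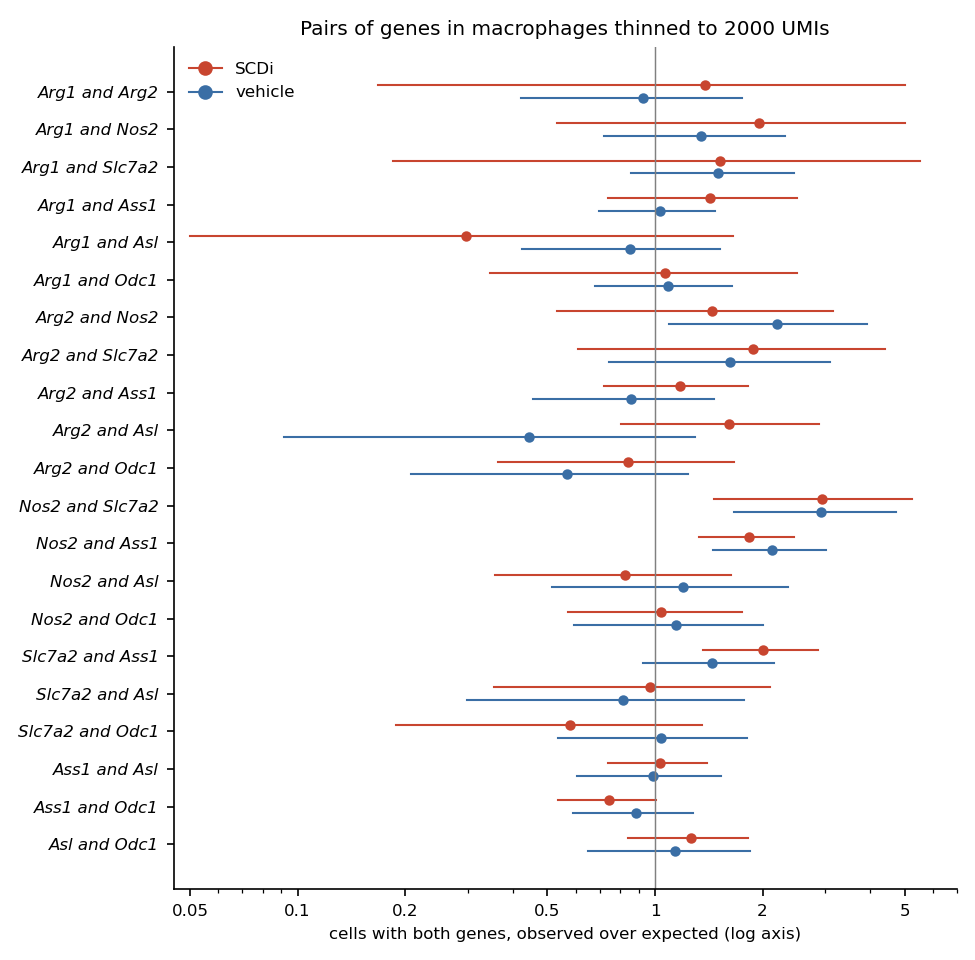
Number of macrophages with a UMI of both genes over the number expected from the separate shares (x axis, log scale) for each pair of the 7 genes (y axis), SCDi in red above vehicle in blue, in cells thinned to 2000 UMIs, with the 95% counting interval; intervals that run below 0.05 end there. Nos2 with Slc7a2 and Nos2 with Ass1 lie above 1 in both libraries, and the intervals of Arg1 with Nos2 include 1.

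Macrophages with an Arg1 UMI had more of the hypoxia genes, which respond to low oxygen, than macrophages without one. Of the 12 listed hypoxia genes, 7 had at least 20 CPM in the SCDi comparison and all were higher in Arg1-positive cells (median log2 difference 0.73). In vehicle, 8 of 9 were higher (median 0.53), and the exception was Ndrg1 at -0.14. Over all genes at 20 CPM in the same comparisons, 52.9% of 5839 were higher in Arg1-positive cells in SCDi (median 0.01) and 50.6% of 5910 in vehicle (median 0.0018). The Arg1-positive cells were deeper, as given above, and differed in their clusters, and the part of these in the list values was not tested. Bnip3, a mitophagy receptor, had 64.9 CPM in Arg1-positive and 27.9 CPM in Arg1-negative SCDi macrophages, and 57.6 CPM in Arg1-positive and 38.2 CPM in Arg1-negative vehicle macrophages. Hilpda, which restrains the breakdown of lipid droplets, had 73.2 CPM in Arg1-positive and 31.5 CPM in Arg1-negative SCDi macrophages, and 135 and 72.0 CPM in vehicle ones. Vegfa, the angiogenic growth factor, had 60.5 CPM in Arg1-positive and 25.7 CPM in Arg1-negative vehicle macrophages, and 14.3 and 13.1 CPM in SCDi ones. Nos2-positive macrophages had more of the inflammatory list, in 11 of 11 genes in SCDi (median 1.18) and 12 of 12 in vehicle (median 1.11). Over all genes, 40.2% of 5860 were higher in Nos2-positive cells in SCDi (median -0.07) and 37.4% of 5951 in vehicle (median -0.09). Acod1, which makes itaconate, had 344 CPM in Nos2-positive and 97.4 CPM in Nos2-negative SCDi macrophages, and 271 and 84.7 CPM in vehicle ones. Nos2-positive macrophages also had more of the hypoxia list, in 7 of 7 genes in SCDi (median 0.80) and 11 of 11 in vehicle (median 1.13). Both medians were above those of the Arg1-positive cells, so the hypoxia list was not particular to Arg1. In contrast, 6 of 11 inflammatory genes were higher in Arg1-positive SCDi macrophages (median 0.02) and 2 of 11 in vehicle (median -0.20).

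Between the libraries, the hypoxia list lay on the same side as Arg1. All 8 of its genes at 20 CPM had lower levels in SCDi macrophages (median log2 ratio -0.37, against -0.01 over 5890 genes, of which 53.1% were lower). Of the 8, 2 were lower by at least 1.5-fold, as were 1.12% of the 5890. Those 2, Vegfa and Hilpda, ranked 4 and 5 from the lowest of the 5890. The list was chosen with earlier results of these data known, so nothing is read from its counts between the libraries. Vegfa had 13.2 CPM in SCDi and 34.5 CPM in vehicle (-1.39) and Hilpda 34.8 CPM in SCDi and 87.8 CPM in vehicle (-1.34), while Ldha (-0.13) and Ndrg1 (-0.08) were least different. In monocytes all 6 were lower (median -0.21, against -0.03 over 5301 genes, of which 58.8% were lower). Of the 6, 1 was lower by at least 1.5-fold, as were 0.773% of the 5301. In malignant cells all 10 were lower (median -0.35, against -0.03 over 6118 genes, of which 57.1% were lower). Of the 10, 2 were lower by at least 1.5-fold, as were 0.605% of the 6118. Bnip3 stood at 13.05 CPM in SCDi and 30.4 CPM in vehicle malignant cells (-1.22) and Ndrg1 at 113 CPM in SCDi and 171 CPM in vehicle (-0.60). Vegfa (-0.21) and Ldha (-0.12) were least different there. The part of this in the Arg1 difference was not tested.

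The other list often read beside Arg1 was split in macrophages. Of 6 alternative activation genes at 20 CPM, 3 were lower and 3 higher there (median 0.01): Tgm2 was lowest at -0.15 and Stat6 next at -0.04, while Chil3, a chitinase-like protein, stood at 431 CPM in SCDi and 332 CPM in vehicle (0.37) and Pparg at 145 CPM in SCDi and 131 CPM in vehicle (0.15). Mrc1, the mannose receptor, stood at 830.4 CPM in SCDi and 836 CPM in vehicle macrophages (-0.01). In monocytes all 6 were lower (median -0.38), where 58.8% of 5301 genes were lower, and 1 of them, Mrc1, was past 1.5-fold (0.773% of genes were), at 247 CPM in SCDi and 483 CPM in vehicle (-0.97). Of 11 inflammatory genes in macrophages 5 were lower and 6 higher (median 0.06), between Ptgs2 (-0.42) and Slc7a11 (-0.31) at one end and Cd40 (0.24) and Acod1 (0.30) at the other, and none was past 1.5-fold. The same held of the 11 in monocytes (median -0.04), where Acod1 stood at 135 CPM in SCDi and 90.2 CPM in vehicle (0.58), and of the 5 in malignant cells (median 0.01).

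**Figure D5:**
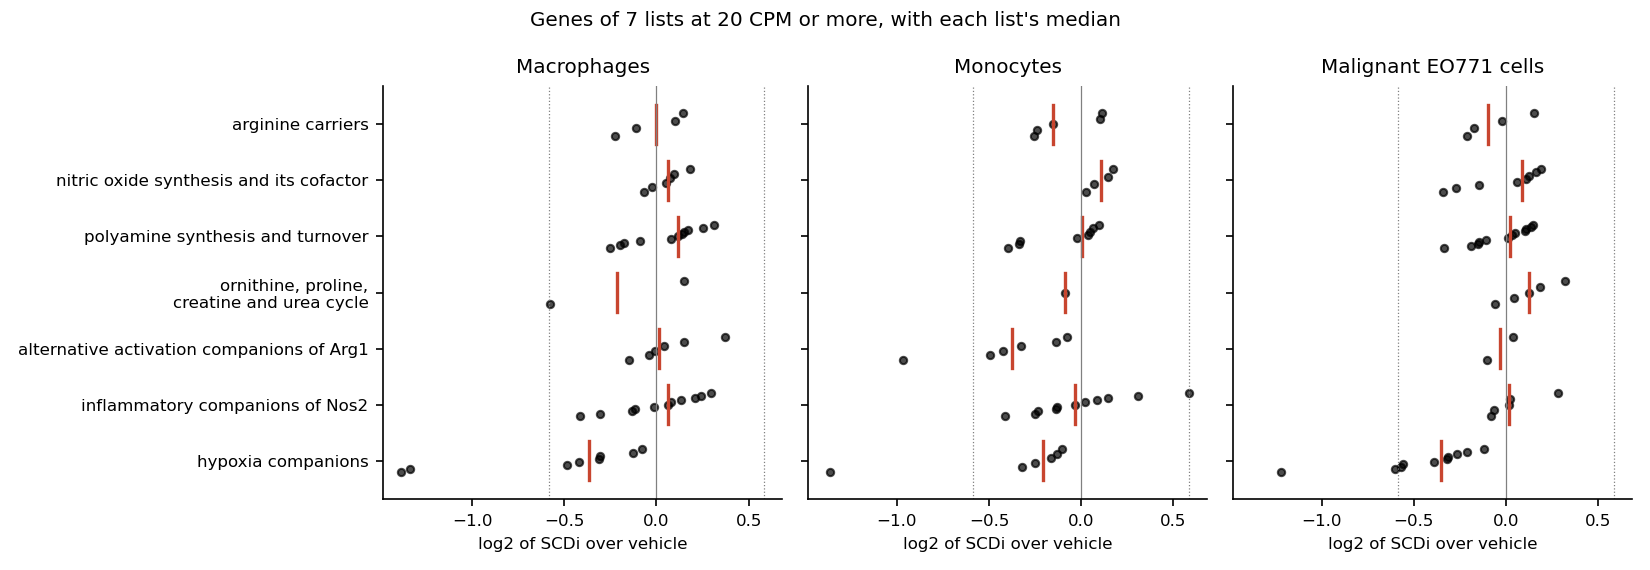
Log2 ratio of SCDi over vehicle (x axis) of each listed gene with at least 20 CPM in either library, by list (y axis), in macrophages, monocytes and malignant cells; the red bar is the list's median and dotted lines mark 1.5-fold. The hypoxia list has its median at -0.37, -0.21 and -0.35, and the 4 arginine-related lists keep all points inside the dotted lines.

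In the wider arginine network no listed gene at 20 CPM was past 1.5-fold. Of 4 genes of the arginine carrier list at 20 CPM in macrophages, 2 were lower and 2 higher. The lower ones were the lysosomal arginine sensor Slc38a9 (-0.22) and Slc7a8 (-0.11), an exchanger of neutral amino acids. The higher ones were the exchanger light chain Slc7a7 (0.10) and its heavy chain Slc3a2 (0.15). In malignant cells the widely expressed importer Slc7a1 stood at 80.4 CPM in SCDi and 81.5 CPM in vehicle (-0.02), with Slc38a9 (-0.21) and Slc7a6 (-0.17) lowest and Slc3a2 (0.15) highest. Of 6 genes of nitric oxide synthesis in macrophages 2 were lower and 4 higher: Pts at -0.07 and Spr at -0.02, both of tetrahydrobiopterin synthesis, against the synthase-interacting Nosip (0.10). Malignant cells expressed the neuronal synthase Nos1 at 36.5 CPM in SCDi and 46.3 CPM in vehicle (-0.34), which was the lowest ratio of 8, before Ddah1 (-0.27), a hydrolase of methylated arginines; Spr (0.16) and Qdpr (0.19) were highest.

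Of 11 polyamine genes at 20 CPM in macrophages 4 were lower and 7 higher (median 0.12). Spermine oxidase Smox stood at 113 CPM in SCDi and 135 CPM in vehicle (-0.25) and the polyamine transporter Atp13a3 at -0.20, while Eif5a, the protein that carries the polyamine-derived residue hypusine, stood at 0.25 and spermine synthase Sms at 33.5 CPM in SCDi and 26.9 CPM in vehicle (0.31). In malignant cells 5 of 12 were lower and 7 higher (median 0.02), with Smox (-0.34) and Atp13a3 (-0.19) again lowest and the antizyme Oaz1 (0.14) and spermidine synthase Srm (0.15) highest. Of the branches towards proline and creatine, Gatm, which spends arginine on creatine, stood at 55.2 CPM in SCDi and 82.4 CPM in vehicle macrophages (-0.58) and Oat, ornithine aminotransferase, at 40.8 CPM in SCDi and 36.8 CPM in vehicle (0.15). In malignant cells 1 of 5 was lower: Gatm at -0.06, beside Oat (0.19) and Pycrl (0.32) of proline synthesis. Below 20 CPM values are noisier and are not counted.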

How the data were processed

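UMI counts per gene and barcode were deposited by the authors as 4 filtered matrices of 32285 genes; the submitters' processing notes name Cell Ranger 7.1.0 and the mm10 build. The labels and headers do not state intron and strand settings, and no normalization had been applied to the counts. The libraries held 6777 SCDi and 7332 vehicle immune barcodes (141068797 and 135851178 UMIs) and 9034 SCDi and 7713 vehicle tumour barcodes (329888529 and 307846497 UMIs).

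Barcodes with at least 300 genes and at most 15% mitochondrial UMIs were kept. The automatic doublet threshold of scanpy 1.11.5 marked at most 0.0155%, under the 0.5% that was required, so the highest scores were removed at 0.8% per 1000 barcodes. Cells were clustered (2000 variable genes, 30 components, 20 neighbours, Leiden resolution 1), and a cluster was named from at least 3 markers at least 2-fold above the other clusters. For malignant-cell markers the 2-fold was taken over the summed immune cells instead. A marker also had to be found in at least 10% of the cluster's cells in the immune sort, or 4% in the tumour sort. The naming thresholds and the removal of mixed cells (1.55% of SCDi and 2.39% of vehicle immune cells) were chosen after seeing the data. Raw counts were summed per class and library and divided by the class total (CPM). Poisson, Clopper-Pearson and conditional binomial intervals at 95% cover counting error only. Molecules were counted by UMI, and pooled mice could not be told apart. The 7 genes and the lists were chosen with earlier results of these data known. Named list genes were the highest 2 and lowest 2 ratios at 20 CPM in macrophages or malignant cells; other named list genes, those in monocytes and those split by Arg1 or Nos2 included, were chosen after their values were seen. Some genes that this rule names are not reported here. No p-value was computed, because each group was 1 library.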

Additional observations from a re-analysis of the deposited data

Results flagged for a closer look

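Differences past 1.5-fold that ran in opposite directions in a pair of classes or clusters were picked out; none of these differences between groups was tested. Nos2 had a log2 ratio of 0.71 in monocytes, beside -0.17 in macrophages. Nos2 had a ratio of -3.70 in B cells, from 3 SCDi and 38 vehicle UMIs, opposite in sign to monocytes and of the same sign as macrophages, malignant cells and microglia. Below 20 CPM, Nos2 was also higher in SCDi T cells (1.42, 0.68 to 2.22) and type 2 conventional dendritic cells (2.70, 1.62 to 4.17). A single SCDi cell held 33 of 42 UMIs in T cells and 41 of 46 in these dendritic cells. Arg1 had a ratio of 0.95 in monocyte cluster 2 (163 SCDi and 88 vehicle UMIs) and -3.30 in monocyte cluster 3 (5 SCDi and 87 vehicle UMIs); the highest SCDi monocyte alone held 76 Arg1 UMIs.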

How the results depend on the processing

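The log2 ratio of Arg1 in macrophages (-2.45) was below 0 under all 14 alternatives: -2.27 and -2.26 at Leiden resolutions 0.5 and 2.0, -2.75 with all deposited barcodes, -2.21 with clusters weighted to vehicle sizes, -2.34 thinned, and, chosen after seeing the data, -2.90 without the Spp1-led cluster and -3.81 without the 1% of cells with the most Arg1. Arg1 in monocytes (0.06) kept its sign under 6 of 12: -1.19 and -0.51 at the resolutions 0.5 and 2.0, -1.32 with all barcodes, 0.52 with a stricter filter, -1.36 with no doublet removal, 0.86 as the mean of each cell's CPM and -1.61 without the top 1% of cells; the cause was not tested. Nos2 in macrophages (-0.17) was -0.075 with all barcodes, -0.029 thinned and -0.27 without the Spp1-led cluster. Odc1 in malignant cells (0.02) was 0.045 scaled by the median of ratios, -0.11 with clusters weighted to vehicle sizes and 0.028 without the top 1% of cells. The Arg1 and Nos2 overlap in SCDi macrophages (1.96) was 5.41 (1.47 to 13.8) thinned to 1000 UMIs and 5.96 (0.72 to 21.5) with at least 2 UMIs of each gene. In vehicle (1.35) the overlap was 1.74 (0.70 to 3.58) thinned to 1000 UMIs and 2.63 (0.97 to 5.73) with at least 2 of each. Listed genes past 1.5-fold numbered 2 in macrophages at 20 CPM, 7 at a minimum of 5 CPM and 12 with no minimum, and in malignant cells 2, 5 and 18. At 20 CPM, 1.12% of 5890 macrophage genes were 1.5-fold lower and 0.492% higher, and 0.605% and 0.245% of 6118 malignant-cell genes. No share over all genes was computed at the lower minimums, so nothing is read from the rise. No paired analysis was possible because each group was 1 pooled library per sort, and for the same reason no replicate could be left out.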
